A study of Mus musculus with 16 samples.

Results

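The Ts65Dn mouse carries a small extra chromosome made of the distal end of mouse chromosome 16 (MMU16) and the start of MMU17, and is studied as a model of Down syndrome. The genes described here are the last 72 MMU16 genes of the deposited table, in the order of the number in their identifiers, whose normalized count averaged 10 or more over the 8 pups of the Ts65Dn cross. They are 72 of 13807 genes in the whole table and 72 of 426 MMU16 genes past that minimum. The stretch was set with the ratios of Ts65Dn to euploid pups along MMU16 known from these same pups, so every Ts65Dn ratio below is a description with no test. All 72 rows from the first of these genes to the end of MMU16 passed the minimum, and none was lost to it. That the identifier number follows chromosomal position is an assumption.

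Poly(A) RNA of whole cerebellum was sequenced from 16 pups at postnatal day 6, 4 in each of 4 groups. Ts65Dn pups and their euploid littermates were on a C57BL/6J x C3H/HeJ background. TcMAC21 pups, which carry nearly all of human 21q on a mouse artificial chromosome and keep their own MMU16 in its usual copy number, and their euploid littermates were on a C57BL/6J (B6) x DBA/2J (D2) background. The Ts65Dn cross came from 2 litters and the TcMAC21 cross, whose trisomic pups were recognised by the GFP of the artificial chromosome, from 3. No treatment was given, the sex of the pups is not labelled, and the extra Ts65Dn chromosome also carries MMU17 genes without a counterpart on human chromosome 21.

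An extra copy of a gene adds template, and in the simplest case its messenger RNA rises in proportion, so that a gene with an extra copy gives a ratio of 1.5 to a gene with the usual copies. Feedback on a gene's own product, limited transcription factors or a change in the cells that express it can move single genes away from this value. The distal end of MMU16 is known to hold the mouse counterparts of many genes of human chromosome 21, among them App, the precursor of amyloid beta, Sod1, an enzyme that removes superoxide, Dyrk1a, a protein kinase, Hmgn1, a nucleosome-binding protein, and Ets2, a transcription factor. In the cerebellum of this age, granule cell precursors divide in response to Sonic hedgehog. The table pairs no identifier with a symbol, and the kind of tissue could not be checked against marker genes. Each gene is therefore called by its place, from 1 for the first to 72 for the last, and no role can be given to it.

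The value of a gene in a pup is its normalized count, the number of reads on the gene divided by a size factor of the library. It depends on transcript length as well as on the number of molecules, so a level here is a level of reads and does not rank genes by molecules. Reads on genes ranged from 6317856 to 25719969 per library. 3 libraries stood apart from their groups. Over all mouse genes of its cross, the deviations from the group mean had an SD of 0.51 on the log2 scale in Ts65Dn euploid replicate 1, against 0.19 to 0.30 in the other euploid replicates. In TcMAC21 replicate 4 the same SD was 0.47, against 0.21 to 0.27 in the other TcMAC21 replicates. In TcMAC21 euploid replicate 4, its littermate by number, it was 0.39, against 0.20 to 0.30 in the other euploid replicates of that cross. These libraries had 9140152, 7704334 and 15335426 reads in this order.

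The 72 genes together gave more RNA in the Ts65Dn pups than in their euploid littermates, with no overlap between the groups. Their summed normalized counts were 140967, 137147, 144614 and 141469 in the Ts65Dn pups and 90907, 92120, 92577 and 93045 in the euploid littermates. The ratio of the summed counts was 1.53, and the median ratio of single genes was 1.44, with the middle of the genes from 1.27 to 1.62 (quartiles). In these whole-tissue samples, a change in the share of cells that express a gene and a change in RNA per cell cannot be told apart. The genes took 0.979% ± 0.024 (SD, n = 4) of all normalized counts in Ts65Dn pups and 0.655% ± 0.018 (SD, n = 4) in their littermates. Without Ts65Dn euploid replicate 1 the median ratio was 1.48.

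The summed count rested on few genes. Places 5, 34 and 53 supplied 41.3% of the mean normalized count of all 72 in this cross and 47.8% of the excess in Ts65Dn pups, and the 36 genes with the fewest reads supplied 7.50%. Place 5 had normalized counts of 23826, 24128, 29727 and 27014 in Ts65Dn pups and 20315, 14266, 13817 and 12898 in euploid littermates. The groups did not overlap, although the highest euploid value, that of replicate 1, stood well above the other euploid values. Its ratio was 1.71, and 1.92 without that replicate. Place 53 had 19825, 20802, 22822 and 21027 in Ts65Dn pups against 11877, 13378, 13786 and 13603 in littermates, a ratio of 1.60. Place 34 had 14064, 12162, 12338 and 11846 against 7782, 8042, 8104 and 8148, a ratio of 1.57. For both, each group was tight and the gap between groups was wide. Without the 3 genes the ratio of the summed counts was 1.46.

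**Figure D1:**
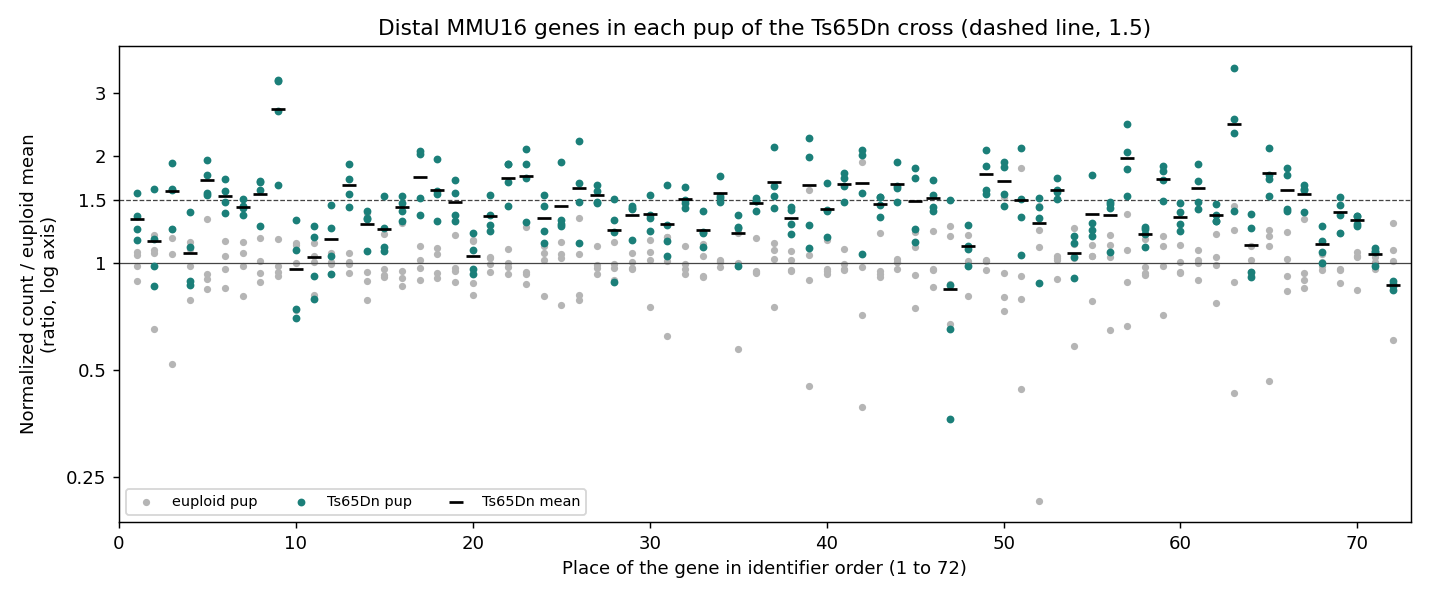
Ratio of each pup's normalized count to the mean of the 4 euploid littermates (log axis) for the 72 distal MMU16 genes in identifier order, with 4 Ts65Dn pups (green), 4 euploid littermates (grey) and the mean of the Ts65Dn pups (black bar). The black bars of 36 genes lie between the quartiles, 1.27 and 1.62, places 9 and 63 lie highest at 2.70 and 2.45, and places 10, 47 and 72 lie under 1.

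Single ratios ran from 0.846 to 2.70, with an SD of 0.296 on the log2 scale. The 354 MMU16 genes before the stretch, which have no extra copy, had ratios from 0.436 to 2.16 in the same pups. Their median was 0.950 and their SD on the log2 scale was 0.311. The SD was thus no larger inside the stretch than before it, and the difference was not tested. In the stretch, the largest ratio was that of place 9 (chr16.208788). Its normalized counts were 144, 231, 280 and 284 in Ts65Dn pups and 101.2, 84.9, 81.8 and 79.6 in euploid littermates. All 4 Ts65Dn pups were above all 4 littermates, and replicate 1 of the trisomic group was nearest to them. The next, place 63 (chr16.210509), had a ratio of 2.45 from few reads. Its normalized counts were 21.5, 35.5, 54.1 and 38.9 against 19.0, 22.2, 6.63 (3 reads, treated as the floor) and 13.6. Its groups overlapped. Places 57, 65 and 49 followed with ratios of 1.97, 1.78 and 1.78. Place 49 was the steadiest of these, with 917, 943, 1104 and 1221 in Ts65Dn pups against 598, 595, 561 and 601. Place 65 rested partly on a single library, since Ts65Dn euploid replicate 1 had 1621 where the other littermates had 3876, 4146 and 4302, and its ratio was 1.51 without that replicate.

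At the low end, 3 genes had a ratio under 1. Place 47 (chr16.210023) had the smallest, 0.846, with normalized counts of 81.2, 46.9, 19.7 and 35.2 in Ts65Dn pups and 36.4, 47.0, 68.5 and 64.4 in littermates. The Ts65Dn pups spanned the littermates on both sides. Place 72 (chr16.211039), the last gene and the one with the fewest reads, had 16.1, 16.6, 15.8 and 16.3 against 19.0, 11.4, 24.3 and 20.3, a ratio of 0.864. Place 10 had more reads, 1005, 826, 565 and 534 against 563, 762, 864 and 855, and a ratio of 0.962. Here replicates 1 and 2 of the Ts65Dn group lay among or above the littermates, replicate 3 lay next to the lowest littermate, and replicate 4 below all of them. Places 11 and 20 were the next, with ratios of 1.04 and 1.05 that fell to 0.978 and 0.986 without Ts65Dn euploid replicate 1. Places 4 and 71 followed with ratios of 1.06 each, which became 0.993 and 1.07 without Ts65Dn euploid replicate 1. In all, 7 of the 72 genes had a ratio under 1 without that library.

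The precision of a single ratio was limited. The standard error of the log2 fold change by limma, fitted over all genes of the cross, had a median of 0.15 and ran from 0.10 to 0.51 among the 72 genes. Over the 8 fits that each left out a pup, 65 genes kept a ratio above 1, 39 kept one above 1.3, 17 stayed between 1.3 and 1.7, and 3 stayed above 1.7. The range of a gene's ratio over these fits had a median width of 0.186 and was at most 1.02 wide. It was 1.396 to 2.42 for place 42 and 1.27 to 2.09 for place 51, both with the highest value without Ts65Dn euploid replicate 1.

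The lowest Ts65Dn pup exceeded the highest littermate for 42 of the 72 genes, and the reverse was found for 0. The same held for 4.52% (higher) and 4.23% (lower) of all mouse genes tested in this cross, and for 2.82% (higher) of the 354 MMU16 genes before the stretch. Since the genes were chosen by this contrast, the counts are given for scale only.

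The dosage ratio was read against the level of reads, which was taken as the mean normalized count over the 8 pups of the TcMAC21 cross, animals that take no part in the ratio. The 72 genes had a median of 600.3 normalized counts in the Ts65Dn cross, with means from 17.5 at place 72 to 20749 at place 5. Across the genes, the log2 ratio went with the log2 level by Pearson's r = 0.11 and Spearman's rho = 0.09 (n = 72 genes, which share libraries and depth). The median ratio was 1.496 in the 24 genes of lowest level, 1.36 in the middle 24 and 1.46 in the 24 of highest level. Between pups these medians had SDs of 0.112, 0.0497 and 0.0725, and without Ts65Dn euploid replicate 1 the medians were 1.56, 1.33 and 1.44.

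The scatter of the ratios did differ with level. Among the 24 genes of lowest level the SD of the log2 ratio was 0.40, with ratios from 0.846 to 2.70, and among the 24 of highest level it was 0.20, with ratios from 1.06 to 1.78. In the middle 24 it was 0.25. Ratios between 1.3 and 1.7 were found for 11, 14 and 16 genes in order of rising level, and non-overlapping groups for 9, 15 and 18. These counts come from the contrast that chose the genes, without a share over all genes, and are given for scale only. The distance of a gene's log2 ratio from the median had Pearson's r = -0.35 and Spearman's rho = -0.23 with log2 level. Without Ts65Dn euploid replicate 1 the SDs were 0.50, 0.33 and 0.25 in the same order. The TcMAC21 ratios of the same genes, which have no extra mouse copy there, had SDs of 0.32, 0.15 and 0.19.

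**Figure D2:**
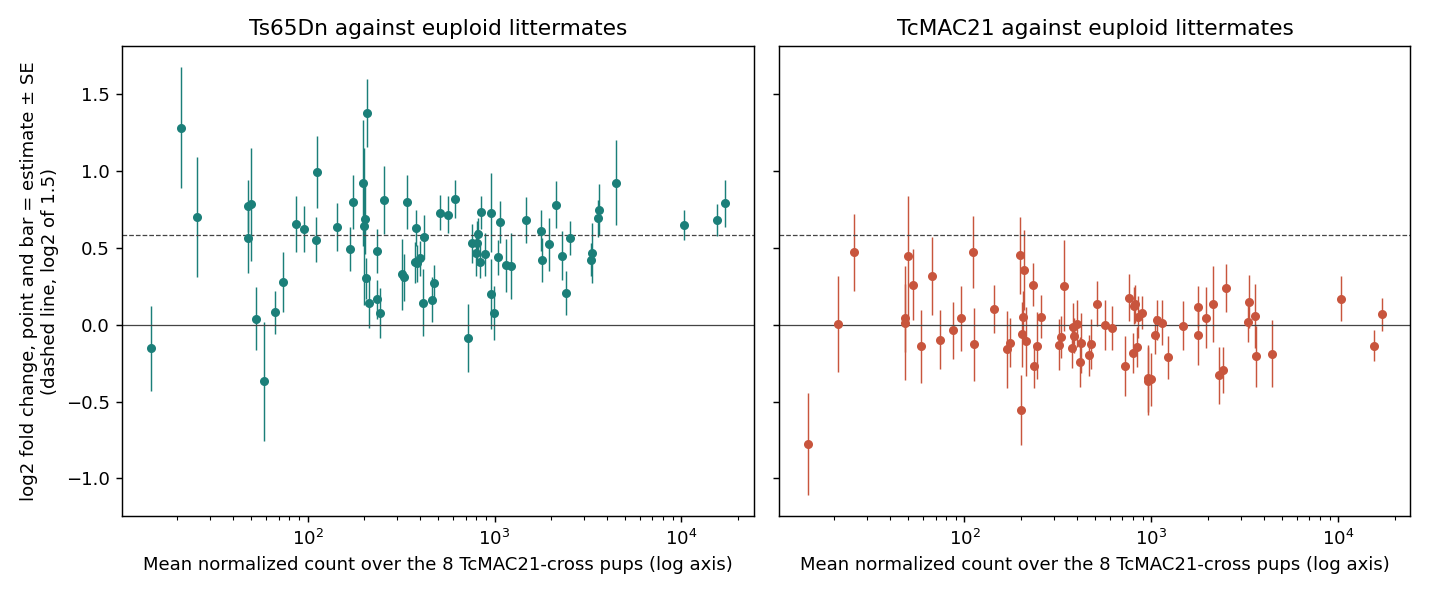
Log2 fold change by limma on log2(normalized count + 1), with its standard error as a bar, against the mean normalized count over the 8 pups of the TcMAC21 cross (log axis), for the 72 genes in Ts65Dn (left) and TcMAC21 (right). The points scatter most at low counts in both crosses, around the dashed line (log2 of 1.5) in Ts65Dn and around 0 in TcMAC21.

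The spread between pups of a group, which took no part in the choice of the genes, was next compared. The SD of log2(normalized count + 1) over the 4 pups had a median over the 72 genes of 0.19 in Ts65Dn, 0.21 in their euploid littermates, 0.20 in TcMAC21 and 0.23 in theirs. Over all mouse genes tested the medians were 0.21, 0.26, 0.26 and 0.24. The SD was larger in Ts65Dn pups than in their littermates for 31 of the 72 genes, or 43.1%, and for 40.5% of all mouse genes tested. The euploid value depended on a single library, and was 0.09 for the 72 genes and 0.12 for all mouse genes without Ts65Dn euploid replicate 1. In that comparison the order of the groups turned around, with the 3 remaining littermates closer to each other than the 4 Ts65Dn pups. In the TcMAC21 cross the median was 0.14 in TcMAC21 without replicate 4 and 0.16 in the littermates without replicate 4.

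Read counting alone would give a median SD of 0.06 in Ts65Dn and 0.07 in each of the other groups. The measured SD exceeded the counting SD for 67 genes in Ts65Dn, 63 in their littermates, 66 in TcMAC21 and 68 in theirs. The steadiest genes in the Ts65Dn cross, by the mean of both groups' SDs, were place 71 at 0.06, place 34 at 0.07 and place 53 at 0.09. Place 71 had normalized counts of 104, 101.3, 92.5 and 102 in Ts65Dn pups and 98.0, 93.5, 95.03 and 90.6 in littermates, a ratio of 1.06, and the groups overlapped. The most variable genes were place 52 at 0.81, place 42 at 0.69 and place 63 at 0.62. Place 52 had 285, 324, 187 and 305 in Ts65Dn pups and 45.9, 236, 263 and 307 in littermates, and its ratio of 1.29 became 1.02 without the low value of euploid replicate 1. Place 42 went the other way, with 196, 370, 290 and 382 against 354, 132, 179 and 72.8, and the highest euploid value was that of replicate 1.

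**Figure D3:**
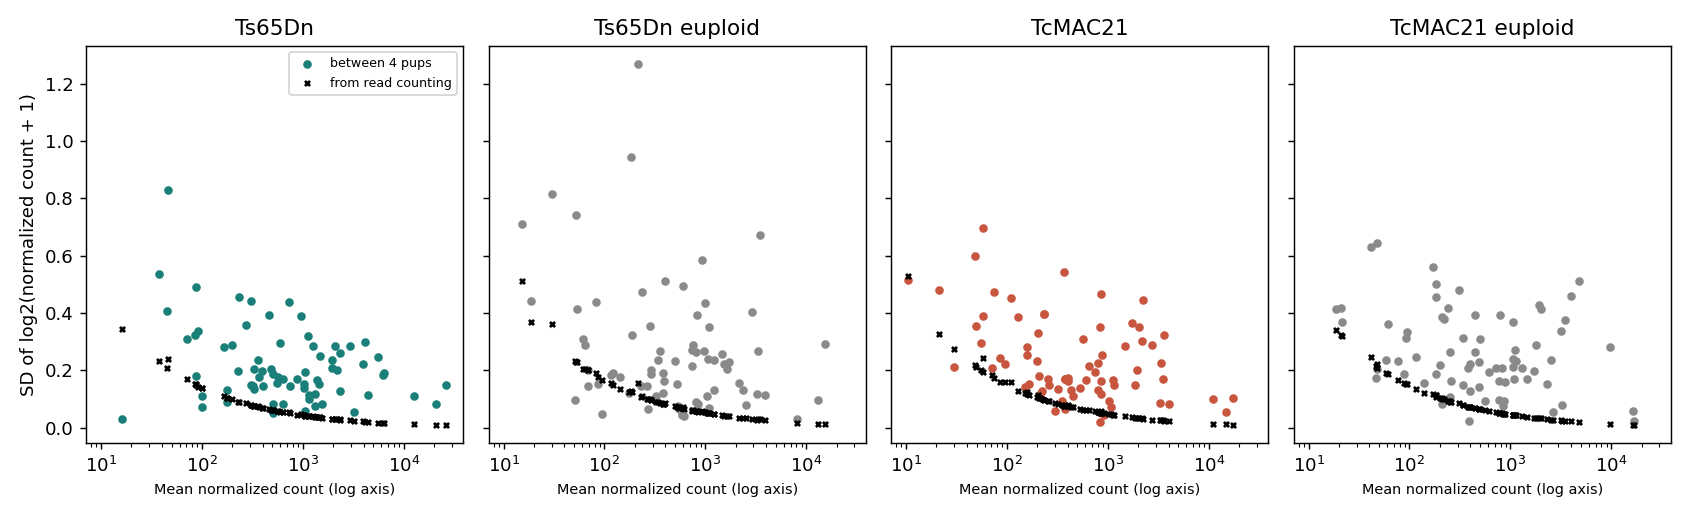
SD over the 4 pups of log2(normalized count + 1) for each of the 72 genes against its mean normalized count (log axis) in each group, with the SD that read counting alone would give as black crosses. Most points lie above the crosses, and the highest points lie among the Ts65Dn euploid littermates.

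Genes that varied more between pups in one cross tended to vary more in the other. A gene's mean SDs in the 2 crosses, which share no animals, had a Pearson's r of 0.50 and a Spearman's rho of 0.51 over the 72 genes, which share the level of reads in both crosses. The SD in the TcMAC21 cross fell with level by Pearson's r = -0.44. When the genes were ordered by that SD, the SD of the Ts65Dn log2 ratio was 0.20 in the 24 steadiest genes, 0.21 in the next 24 and 0.43 in the 24 most variable. The median ratios were 1.41, 1.45 and 1.45, and 1.53, 1.49 and 1.38 without Ts65Dn euploid replicate 1, so that the order of the medians rested on that library. Ratios from 1.3 to 1.7 numbered 17, 14 and 10, and the groups did not overlap for 18, 14 and 10 genes, counts again given for scale only. Genes that varied little between TcMAC21-cross pups thus had Ts65Dn ratios closer to each other. The SDs without that library were 0.25, 0.28 and 0.53.

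Single pups agreed on the typical ratio and differed in how far genes scattered around it. The median ratio over the 72 genes was 1.42, 1.47, 1.398 and 1.39 in Ts65Dn replicates 1 to 4, or 1.42 ± 0.034 (SD, n = 4), and 0.992, 0.992, 1.003 and 1.02 in the littermates. The quartiles were 1.27 and 1.57 in replicate 1 and 1.28 and 1.57 in replicate 2, and widened to 1.16 and 1.66 in replicate 3 and 1.15 and 1.698 in replicate 4. The number of genes above the euploid mean was 69, 70, 59 and 64 in the same order. Over the 354 MMU16 genes before the stretch, the medians of these pups were 0.983, 0.959, 0.928 and 0.915. The lower medians of the earlier MMU16 genes in replicates 3 and 4 moved with the wider quartiles of the 72 genes, and their part in these was not tested.

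**Figure D4:**
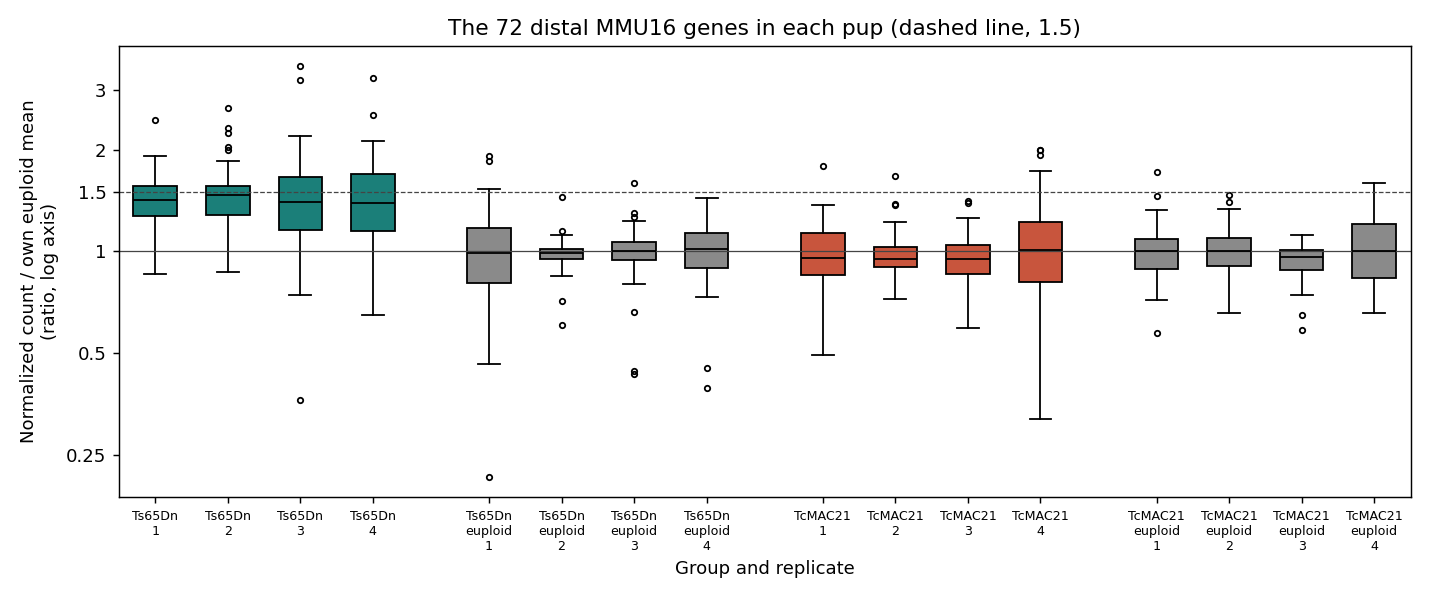
Ratio of each pup's normalized count to the mean of the euploid littermates of its own cross (log axis), as a box of median and quartiles over the 72 genes with whiskers to the farthest value within 1.5 box lengths and circles beyond. The 4 Ts65Dn boxes have medians from 1.39 to 1.47 and the others lie around 1, and the boxes of Ts65Dn euploid replicate 1 and TcMAC21 replicate 4 are the widest of their groups.

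Along the stretch, the ratio showed no single trend. In successive runs of 12 genes the median ratio was 1.38, 1.46, 1.41, 1.51, 1.44 and 1.38. The medians of the same runs in single Ts65Dn pups lay from 1.22 to 1.47 in the first run, from 1.37 to 1.73 in the fourth run and from 1.34 to 1.47 in the last, so the runs overlapped. At the start of the stretch the 5 genes just inside had ratios of 1.33, 1.15, 1.59, 1.06 and 1.71, and the 5 just outside, in order, had 0.716, 0.938, 0.725, 1.01 and 1.04. Places 2 and 4 had the lowest ratios of the 5 inside. Place 2 had normalized counts of 1342, 973, 718 and 815 in Ts65Dn pups against 544, 892, 906 and 996, and place 4 had 1479, 1177, 943 and 920 against 835, 1040, 1162 and 1211. In both genes replicate 1 of the Ts65Dn group was the highest of the 8 pups and replicate 1 of the euploid group the lowest. At the far end, places 68 to 71 had ratios of 1.13, 1.39, 1.32 and 1.06.

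The TcMAC21 cross was not used to choose the genes, and there the mouse genes have no extra copy. The summed normalized counts of the 72 genes were 97889, 99757, 100048 and 102806 in TcMAC21 pups and 99283, 103939, 100828 and 103648 in euploid littermates, and the groups overlapped. The ratio of the summed counts was 0.982. The median ratio of single genes was 0.995, with quartiles of 0.899 and 1.08 and a range from 0.569 to 1.41, and 36 genes lay on each side of 1. In single pups the median ratio was 0.958, 0.949, 0.947 and 1.01. The highest was that of TcMAC21 replicate 4, and without it the median ratio of the genes was 0.947. Over the MMU16 genes before the stretch the median ratio was 0.969 in this cross (350 genes).

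The limma fit of this cross covered 13523 genes. None of the 72, that is 0, reached an adjusted p (Benjamini-Hochberg) under 0.05, against 0.0149% of the mouse genes tested. The count was also 0 by edgeR and by DESeq2 on the recovered reads. At an unadjusted p under 0.05 the count was 2 by limma, 1 by edgeR and 1 by DESeq2, where 6.57% of the mouse genes tested passed by limma. In a fit that paired pups by replicate number (the block), 0 of the 72 passed, against 0.991% of the mouse genes tested, and 14 had an unadjusted p under 0.05, 6 of them higher, against 23.4% of the mouse genes tested. The 95% interval of the fold change ended below 1.5 for 61 of the 72 genes and held both 1 and 1.5 for the other 11. In the paired fit it ended below 1.5 for 65 genes and held 1.5 for 7, 3 of which also held 1. Among the MMU16 genes before the stretch, which have no extra copy in either model, the interval ended below 1.5 for 270 of 350 in the unpaired fit and 298 of 350 in the paired fit. Without TcMAC21 euploid replicate 4 the unpaired fit called 0 of the 72, and 8 had an unadjusted p under 0.05, 3 of them higher, as had 1373 of the 13408 mouse genes tested then, against 881 of 13415 with it.

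The 3 genes with the smallest p in the unpaired limma fit of TcMAC21 were lower there. Place 52 had normalized counts of 158, 206, 142 and 132 in TcMAC21 pups and 172, 244, 203 and 339 in littermates. Its log2 fold change was -0.56 with an SE of 0.23, and its adjusted p was 0.676 by limma and 0.159 to 0.9997 over the alternatives. Place 72 had 9.19, 14.02, 13.2 and 5.92 (3 reads, treated as the floor) against 18.2, 27.3, 14.5 and 14.3. The log2 fold change there was -0.78 with an SE of 0.33, and the adjusted p was 0.679 by limma (0.153 to 0.9997 over the alternatives). Place 4 had 948, 1052, 763 and 725 against 1077, 1412, 1083 and 896. Limma gave a log2 fold change of -0.35 (SE 0.17) and an adjusted p of 0.685, with 0.0755 to 0.9997 over the alternatives, the lowest with the replicate block. In the paired fit the genes with the smallest p were others, apart from place 4, and lay on both sides. Place 55 was lower in each TcMAC21 pup than in the littermate of the same number, with 1969, 2562, 2185 and 1439 against 2412, 3036, 2632 and 2048. Its log2 fold change was -0.33 with an SE of 0.08 (adjusted p = 0.0717 by limma with the block, 0.701 without it, up to 0.9997 over the alternatives). Place 43 was higher in each pair, with 107, 100.5, 128 and 184 against 82.1, 73.7, 89.9 and 123, and a log2 fold change of 0.48 with an SE of 0.12 (adjusted p = 0.0924 by limma with the block, 0.685 without it, up to 0.9997 over the alternatives). The groups overlapped at places 4 and 52 and did not at place 72, where the lowest littermate and the highest TcMAC21 pup differed by less than the value of 1 read. In all, 3 of the 72 genes were lower in every TcMAC21 pup than in every littermate, at places 12, 53 and 72, and 0 were higher, where 2.25% and 2.02% of the mouse genes tested were. For place 53 the values were 14227, 15202, 14477 and 15397 against 15543, 17140, 16001 and 16445, a ratio of 0.911 (adjusted p = 0.738 by limma, 0.277 to 0.9997 over the alternatives). Every TcMAC21 pup was below the mean of its littermates for 19 of the 72 genes (26.4%, against 18.4% of the mouse genes tested) and above it for 8 (11.1%, against 11.4%). Without TcMAC21 euploid replicate 4 these counts were 14 and 13, and the shares of all mouse genes in that setting were not computed. Every Ts65Dn pup was above the mean of its littermates for 57, in the contrast that chose the genes, against 20.7%. The Ts65Dn pups were all above and the TcMAC21 pups all below for 10 of the 72, against 0.9% of the mouse genes tested in both crosses. Without TcMAC21 euploid replicate 4 the count was 8, and no share of all mouse genes was computed for it. Since the Ts65Dn part of this count comes from the choice of the genes, nothing is read from it.

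Genes with a larger ratio in Ts65Dn also tended to have a larger ratio in TcMAC21. Over the 72 genes, the Pearson's r between the log2 ratios of the crosses was 0.43, the Spearman's rho was 0.41, and 25 genes were above the median in both and 25 below it in both. Without Ts65Dn euploid replicate 1 the values were 0.56 and 0.56. The crosses share no animals, but they share the gene models, transcript lengths and library method. Over the 350 MMU16 genes before the stretch that passed the minimum in both crosses, r was 0.50 and rho 0.53. The difference between these values was not tested. Place 9, the gene with the largest Ts65Dn ratio, had 242, 164, 208 and 318 in TcMAC21 pups against 180, 120, 172 and 261. Each TcMAC21 pup was higher than the littermate of the same number. The ratio was 1.27 (adjusted p = 0.735 by limma, 0.11 to 0.9997 over the alternatives, the lowest with the replicate block). These TcMAC21-cross pups of both genotypes lay above the 4 Ts65Dn euploid littermates, whose highest value was 101.2. The other genes with large Ts65Dn ratios did not stand high in TcMAC21, where the ratio was 1.02 at place 63, 0.938 at place 57, 0.837 at place 65 and 0.984 at place 49. Without TcMAC21 euploid replicate 4 these were 1.205, 0.871, 1.02 and 1.04, and that of place 9 was 1.48. Without TcMAC21 replicate 4 instead, they were 0.850, 1.05, 0.849 and 0.959, and that of place 9 was 1.12.

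**Figure D5:**
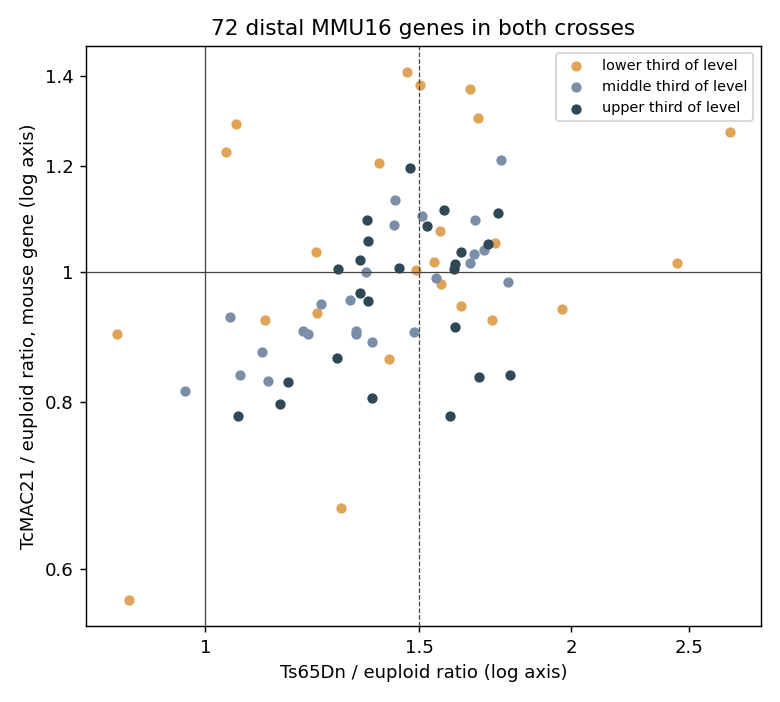
Ratio of TcMAC21 to euploid means (log axis) against the ratio of Ts65Dn to euploid means (log axis) for each of the 72 genes, coloured by level of reads. Most points lie to the right of 1 on the Ts65Dn axis and on both sides of 1 on the TcMAC21 axis, with 25 genes above both medians and 25 below both.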

How the data were processed

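Per the labels and the study's methods, the authors made poly(A) libraries (NEBNext, a kit that does not mark strand), aligned reads by STAR 2.4.2a to mm39 plus human chromosome 21, built gene models from the samples jointly (PsiCLASS) and normalized their counts (DESeq2). Each deposited value, a signal in kind, is a normalized count: reads over the library's size factor, given to 2 decimals. Identifiers hold a chromosome and a number, so overlapping or antisense genes could not be told apart, and no sequence could be matched. Within 0.1 of a read, beside the rounding, 100% of the values of each library came out as whole reads, which gave back the counts. A count of 3 reads or fewer was treated as the floor. Counting SDs cover counting error only.

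A ratio divides the mean of the 4 trisomic pups by the mean of their 4 euploid littermates. Each cross was fitted alone with limma 3.58.1 (lmFit, eBayes with trend) on log2(normalized count + 1), over genes with a mean of at least 10 in its 8 pups, with Benjamini-Hochberg adjustment. Such fold changes understate those of genes with few reads. The values are normalized counts, so count models on the recovered reads (edgeR 4.0.16 and DESeq2 1.42.0 in R 4.3.3) served as alternatives. They called 110 and 127 of the 13523 genes in TcMAC21, against 110 by limma, and most of these were human chromosome 21 genes. Of the 13415 mouse genes tested, edgeR called 2 and DESeq2 19, against 2 by limma. The unpaired limma, edgeR and DESeq2 fits were tested on simulated counts. The rest used Python 3.11.15 with pandas 2.3.3, NumPy 2.4.6, SciPy 1.17.1 and, for figures, matplotlib 3.10.9. Other alternatives were a pseudocount of 0.1, a minimum of 50 or none, TMM scaling, log2 differences, a level from the Ts65Dn cross, the replicate block and each pup left out. The genes and lists were chosen with earlier results of these data known.

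Named were places 1 to 5 and 68 to 72, the 5 largest and smallest Ts65Dn ratios, the 5 highest and lowest means, the 3 largest and smallest SDs and the 3 smallest p in TcMAC21. Places 12, 43 and 55 were named after their values were seen. Identifiers are printed for the 2 largest and 2 smallest ratios. Replicate numbers were checked as pairs, since trisomic pups and euploid littermates were taken in pairs. In the TcMAC21 cross, deviations from the group means of same-numbered pups had correlations of 0.491, 0.502, 0.197 and 0.5. In the Ts65Dn cross they correlated by -0.451 to -0.135. Pups of different numbers were not compared, and replicate 4 stood apart in both TcMAC21-cross groups, which alone can raise such correlations. Whether the numbers pair the pups was therefore not settled, and the block served only as an alternative. The unpaired p-values rest on the spread between pups of a group, and those with the block on the spread of differences between same-numbered pups. The litter of each pup is not labelled and was in neither fit.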

Additional observations from a re-analysis of the deposited data

Results flagged for a closer look

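In groups of 4, a value was singled out where its gap to the nearest pup exceeded Dixon's 95% limit, which chance passes in about 1 of 20 groups. This held for 19 of the 288 sets of 4 values of the 72 genes, and Ts65Dn euploid replicate 1 and TcMAC21 replicate 4 were the far pup in 5 sets each. The 72 genes took 0.629% of normalized counts in Ts65Dn euploid replicate 1, below its group. Place 65 had a normalized count of 1621 and place 70 one of 324 in the same library, both below the other littermates. Place 49 had 561 in Ts65Dn euploid replicate 3, below the other littermates. The median ratio of the 72 genes was 1.01 in TcMAC21 replicate 4, above its group, and 0.961 in TcMAC21 euploid replicate 3, below its group. Place 61 had 4988 in TcMAC21 replicate 4, above the other TcMAC21 pups.

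At 10 of the 72 genes, every Ts65Dn pup was above the mean of its euploid littermates and every TcMAC21 pup below that of its own. Both held for 0.9% of the mouse genes tested in both crosses, and the first alone, which the choice of the genes used, for 57 of the 72. The named genes of this kind had TcMAC21 ratios of 0.898 at place 1, 0.781 at place 3, 0.911 at place 53, 0.837 at place 65 and 0.8295 at place 68. Without TcMAC21 euploid replicate 4, which stood apart, the ratio at place 65 turned to 1.02, and those at places 1 and 3 were 0.940 and 0.901 with a TcMAC21 pup above the littermate mean in each. At places 53 and 68 all TcMAC21 pups stayed below. Without TcMAC21 replicate 4 instead, which also stood apart, the ratios at places 1, 3, 53, 65 and 68 were 0.886, 0.863, 0.899, 0.849 and 0.834. The difference between the models was not tested, since the Ts65Dn contrast chose the genes and the copy number differs by design.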

How the results depend on the processing

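Over 107 values under other settings, 4 moved by more than the spread between pups, and each came from leaving out a library. The 107 include 15 counts of genes called in TcMAC21, for which no spread was set. Leaving out a pup tends to move a value by less than that spread, so an unmoved value shows little. The SD of the log2 Ts65Dn ratios, 0.296, counted as unmoved at 0.371 without Ts65Dn euploid replicate 1. The median Ts65Dn ratio was 1.48 without Ts65Dn euploid replicate 1 (1.41 to 1.48 over the pups left out), and the median SD of the 72 genes in Ts65Dn euploid pups was 0.0876 without it (0.0876 to 0.25). The median TcMAC21 ratio was 0.947 without TcMAC21 replicate 4 and 0.962 without TcMAC21 euploid replicate 3 (0.947 to 0.9999 over the pups left out). The count of the 72 genes called in TcMAC21 was 0 in every alternative, leaving out each pup included and 66 of the 72 tested at a minimum of 50, and 0 with the replicate block, where the lowest adjusted p was 0.0717. Over these alternatives the adjusted p of place 4 ran from 0.0755 to 0.9997. With the block, 133 of the 13415 mouse genes tested in TcMAC21 were called, against 2 without it. The minimum of 10 removed none of the 72 genes, so dropping it changed no ratio. Depth limits the genes with few reads, since 3 of the 72 had under 10 reads in some library.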

Other observations

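Among the 72 genes, 11 had an identifier number next to that of another, forming 6 neighbouring pairs. Whether such genes overlap is not given in the table. The Ts65Dn ratios were 1.17 and 1.65 at places 12 and 13, 1.74 and 1.60 at places 17 and 18, 1.23 and 1.57 at places 33 and 34, 1.65 and 1.42 at places 39 and 40, 1.502 and 1.29 at places 51 and 52, and 1.29 and 1.60 at places 52 and 53. At places 52 and 53 the mean normalized counts in the Ts65Dn cross were 244 and 17140. These places were chosen after their values were seen.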
